A study of Mus musculus with 3 samples.

Results

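Messenger RNA of Wnt ligands, secreted Wnt antagonists and Tcf/Lef effectors was examined on 3 Affymetrix mouse arrays. The 9 genes listed were Wnt10a, Wnt10b, Sfrp1, Sfrp2, Lef1, Tcf7, Axin2, Ctnnb1 and Dkk3. A probe set was taken as a member where the platform annotation gives it 1 of these symbols alone. This gave 17 of 34958 probe sets with a single symbol, covering 8 of the 9 genes. No probe set is assigned to Tcf7 by that annotation, so its signal is not reported here.

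The arrays carried RNA from C2C12 cells, an established mouse myoblast line, grown in DMEM with puromycin. Each line expressed a short hairpin RNA (shRNA), 1 against FoxO1, 1 against FoxO3 and 1 against FoxO4, and was expanded from colonies that had been selected for a low level of that gene. Hairpin and colony therefore cannot be told apart. There was 1 array per line and no replicate, so no difference below has a replicate check or a test. The control RNAi cells are represented by the log2 ratio deposited for the FoxO1-labelled array, given to 0.1. Its signal, implied by that ratio, is called the implied control and was not measured separately.

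Wnt proteins are secreted, lipid-modified ligands that bind Frizzled receptors and their Lrp5 and Lrp6 co-receptors. Binding stops a cytoplasmic complex built on Axin, Apc and Gsk3 from marking beta-catenin for destruction. Beta-catenin then enters the nucleus and activates transcription with the Tcf and Lef factors. In muscle and mesenchymal precursors the pathway is known for roles in myogenic commitment, regeneration and restraint of the adipocyte fate, and FoxO factors are known to bind beta-catenin in competition with Tcf.

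The targeted genes were read first. Foxo1 went against its label: its brightest probe set, 1416982_at, had a signal of 2778 on the FoxO1-labelled array, above 563 on the FoxO3-labelled array, 1827 on the FoxO4-labelled array and 1209 in the implied control. The Foxo3 and Foxo4 probe sets did not go 1 way within each gene. On the FoxO4-labelled array the brighter Foxo4 probe set, 1456753_at, read 80.4, beside 1678 in the implied control. The other, 1422149_at, read 762.6, beside 87.6. On the FoxO3-labelled array the brightest Foxo3 probe set, 1434831_a_at, read 1573.0, beside 1570, and the dimmest, 1450236_at, read 82.0, beside 747. Directions are therefore given by array label and not for a known knockdown. Of 6 myoblast markers, all had their brightest probe set above the median of mean signal on these arrays. Their summed signal was 54813, 50568 and 23754 on the FoxO1-, FoxO3- and FoxO4-labelled arrays, beside 106573 in the implied control. Markers of differentiating muscle moved furthest, with summed signals of 7515, 2259 and 2567 over 5 genes, beside 92087 in the implied control. Every comparison with the control below therefore goes with a difference in muscle differentiation markers, whose part in it was not tested. The summed signal of 5 fibroblast markers was 312683, 56200 and 146138, beside 79111, and most of it was Col1a2, at 269397.4, 45753.2 and 131443.4, beside 67349. Dcn ran the other way, at 46.8, 1323.2 and 7870.6, beside 3952. In such bulk RNA, fewer cells of a type and less RNA per cell cannot be told apart. Markers of endothelial and blood cells summed to 1139 to 2802 on every array. Those of 4 epithelial genes summed to 5616, 3284 and 5956, beside 5969 in the implied control. Most of this was Epcam, at 4778.5, 2539.0 and 4792.7, beside 4778. The 3 osteoblast markers with a probe set summed to 2427, 2337 and 2252, beside 2560.

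The most common arrangement among the members was a low signal on the FoxO3-labelled array and a high one on the FoxO4-labelled array. The order FoxO4 over FoxO1 over FoxO3 was found for 8 of the 17 probe sets, from 6 genes, while 16.8% of all probe sets with a single symbol showed it. The 8 include Wnt10b, whose FoxO4 and FoxO1 signals were nearly equal. They also include the dim Axin2 probe set, at 0.27 for FoxO1 minus FoxO3 and -0.33 for FoxO1 minus FoxO4. The bright Lef1 probe set is a further small step, at 0.19 for FoxO1 minus FoxO3. The FoxO4-labelled array gave the highest of the 3 signals for 12 of the 17, against 32.5% of all probe sets. Among the 8 member probe sets with a mean signal above the median, 5 had this order (16.7% of all such probe sets). The 9 others were Sfrp2, all 5 Sfrp1 probe sets, the bright Axin2 probe set, and 1 probe set each of Lef1 and Dkk3. RNA quality also differed, with the FoxO4-labelled array standing apart from the other lines. The 3' to 5' signal ratio of Actb was 6.31, 5.5 and 3.45 on the FoxO1-, FoxO3- and FoxO4-labelled arrays, beside 2.56 in the implied control, and that of Gapdh was 5.0, 5.9 and 2.23, beside 2.68. The part of RNA quality in the order was not tested.

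**Figure D1:**
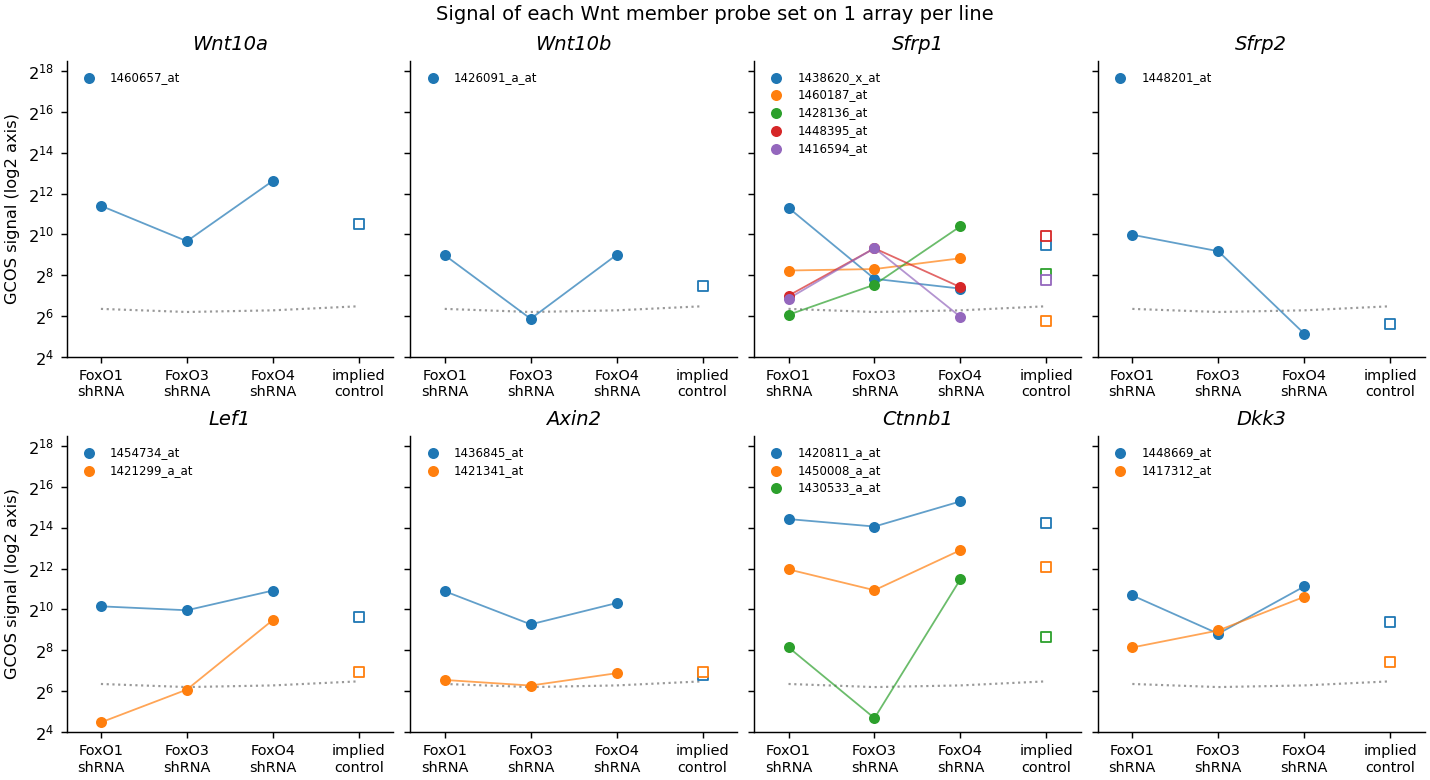
Scaled GCOS signal (log2 axis) of each member probe set on the arrays of the FoxO1, FoxO3 and FoxO4 shRNA lines (filled points, 1 array each, joined per probe set) and in the implied control (open squares). The dotted line is the floor of each array, its 20th percentile. The FoxO3-labelled array is the lowest of the 3 for Wnt10a, Wnt10b and all Ctnnb1 and Axin2 probe sets, while the Sfrp1 probe sets cross.

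Both ligands had their lowest signal on the FoxO3-labelled array. Wnt10a (chr1:74792019-74804176, GRCm38.p6) encodes a ligand that signals through beta-catenin. Its single probe set, 1460657_at, had a signal of 2704.6 on the FoxO1-labelled array, 811.4 on the FoxO3-labelled array and 6314.9 on the FoxO4-labelled array, beside 1449 in the implied control. The 3 arrays were each more than 2-fold apart. The log2 difference was 1.74 for FoxO1 minus FoxO3, -1.22 for FoxO1 minus FoxO4 and -2.96 for FoxO3 minus FoxO4. Of all probe sets in the same decile of mean signal, 1.49% lay as far from 0 as the last value. Against the control the log2 values were 0.90, -0.84 and 2.12 on the FoxO1-, FoxO3- and FoxO4-labelled arrays, so only the last passed 2-fold.

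Wnt10b (chr15:98770712-98778206) encodes the paralogous ligand best known for restraining adipogenesis. Its single probe set, 1426091_a_at, read 504.6 and 58.0 on the FoxO1- and FoxO3-labelled arrays and 510.5 on the FoxO4-labelled array, beside 178 in the implied control. The FoxO1 and FoxO4 signals differed by -0.02 on the log2 scale and are not ordered. The signal on the FoxO3-labelled array lay under that array's floor of 73.1, the 20th percentile of its signals. With that signal set to the floor, which bounds the size, FoxO1 minus FoxO3 was 2.79 and FoxO3 minus FoxO4 was -2.80. The probe set is dim, and in its decile of signal 13.5% of probe sets lay as far from 0 in the second of these comparisons. The 4 adipocyte markers with a probe set did not go 1 way. Their summed signal was 2264, 1310 and 2541 on the FoxO1-, FoxO3- and FoxO4-labelled arrays, beside 1572 in the implied control. Cebpa, the 1 marker above the median of signal, read 1728.1, 754.3 and 2171.2, beside 1310. Fabp4 was also lower on the FoxO3- than on the FoxO1-labelled array, at 226.9 against 481.3, while Pparg (185.8 against 32.3) and Adipoq (143.5 against 22.2) were higher there. Their part in the Wnt10b values was not tested.

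The 3 genes grouped here as secreted antagonists had 3 different patterns. Sfrp2 (chr3:83765750-83774314), a Frizzled-related protein that binds Wnt ligands, was high on the FoxO1- and FoxO3-labelled arrays. Its single probe set, 1448201_at, read 1009.9 and 576.7 on those arrays and 35.0 on the FoxO4-labelled array, beside 47.8 in the implied control. The last values are under the floors of 77.3 and 88.8. The FoxO1 minus FoxO3 difference of 0.81 was under 2-fold, while FoxO1 minus FoxO4 was 3.71 and FoxO3 minus FoxO4 was 2.90, both bounded by the floor. Against the control the deposited log2 ratio on the FoxO1-labelled array was 4.40 with no floor, a value reached by 1.4% of probe sets in the same decile of signal. The FoxO3-labelled array was at least 2.70 above the implied control on the log2 scale, the control being set to its floor. No value is given for the FoxO4-labelled array, since it and the control both lie under their floors. By the median over probe sets, Sfrp2 was the 1 member gene at least 2-fold higher on the FoxO3-labelled array than on the FoxO4-labelled array.

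Sfrp1 (chr8:23411383-23449632), a related antagonist, had 5 probe sets that did not give 1 pattern. The brightest, 1438620_x_at, read 2526.3 on the FoxO1-labelled array, 225.7 on the FoxO3-labelled array and 161.8 on the FoxO4-labelled array, beside 725 in the implied control. Its suffix marks probes that may also bind other transcripts. Probe set 1448395_at read 127.5, 636.8 and 170.1 on the FoxO1-, FoxO3- and FoxO4-labelled arrays, beside 952 in the implied control. Probe set 1416594_at read 115.3, 642.0 and 61.9, beside 215, and so shared the high on the FoxO3-labelled array. Its 61.9 lies under the floor of 77.3, so its FoxO3 minus FoxO4 value of 3.05 is bounded. Probe set 1428136_at had its highest on the FoxO4-labelled array, 1346.2, beside 66.5 and 185.0 on the FoxO1- and FoxO3-labelled arrays and 266 in the implied control. Probe set 1460187_at read 299.5, 314.7 and 453.9 in array order, steps under 2-fold, beside 52.9, which is under the floor of 88.8. For FoxO1 minus FoxO3 the Sfrp1 log2 values ran from -2.48 to 3.48 and for FoxO3 minus FoxO4 from -2.86 to 3.05. The gene has no single direction in these data, and its median over probe sets, -1.19 for FoxO1 minus FoxO3, has the opposite sign to its brightest probe set. That median is the value of 1428136_at, bounded by the floor of 81.2, since its signal on the FoxO1-labelled array was 66.5.

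Dkk3 (chr7:112116019-112159482) encodes a divergent member of the Dickkopf family, whose other members block Lrp5 and Lrp6. Its probe set 1448669_at read 1648.4 on the FoxO1-labelled array, 448.2 on the FoxO3-labelled array and 2237.0 on the FoxO4-labelled array, beside 669 in the implied control. Probe set 1417312_at read 281.0, 500.6 and 1572.6, beside 173. Both were highest on the FoxO4-labelled array, and FoxO3 minus FoxO4 was -2.32 and -1.65. They disagreed on FoxO1 minus FoxO3, at 1.88 and -0.83. Against the control both were above 2-fold on the FoxO4-labelled array, at 1.74 and 3.18.

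Ctnnb1 (chr9:120933400-120960507) encodes beta-catenin. All 3 of its probe sets had the order FoxO4 over FoxO1 over FoxO3. The brightest, 1420811_a_at, read 22115.8, 17161.0 and 40383.3 on the FoxO1-, FoxO3- and FoxO4-labelled arrays, beside 19253 in the implied control. The next, 1450008_a_at, read 3997.5, 1968.6 and 7691.4, beside 4284. The dimmest, 1430533_a_at, read 282.2, 25.4 and 2862.6, beside 399, with the value on the FoxO3-labelled array under the floor and its differences bounded by it. FoxO3 minus FoxO4 was -1.23, -1.97 and -5.29 in this sequence, each past 2-fold. As far from 0 lay 15.1%, 4.72% and 0.0572% of probe sets in the same decile of signal. The 3 probe sets thus shared a direction but differed several-fold in size. Against the control the FoxO1-labelled array lay near 0 for Ctnnb1, at 0.20, -0.10 and -0.50. The FoxO4-labelled array stood at 1.07, 0.84 and 2.84 and the FoxO3-labelled array at -0.17, -1.12 and -2.45.

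Axin2 (chr11:108917828-108950783) encodes a scaffold of the destruction complex and is itself a widely used Tcf target gene. Its bright probe set, 1436845_at, read 1903.7 on the FoxO1-labelled array, 616.7 on the FoxO3-labelled array and 1271.9 on the FoxO4-labelled array, beside 111 in the implied control. All 3 lines were thus high against the control, with log2 values of 4.10, 2.47 and 3.52. Of probe sets in the same decile of signal, 0.543%, 3.8% and 1.12% lay as far from 0. These comparisons share 1 control value, which for this probe set was close to the floor. Between arrays, FoxO1 minus FoxO3 was 1.63 and FoxO3 minus FoxO4 was -1.04, while FoxO1 minus FoxO4 was 0.58. The other Axin2 probe set, 1421341_at, was dim, at 93.1, 77.0 and 117.1, beside 123, and showed none of this, with values of -0.40, -0.67 and -0.07 against the control.

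Lef1 (chr3:131110297-131224357) encodes a DNA-binding partner of beta-catenin. Its bright probe set, 1454734_at, read 1137.9 on the FoxO1-labelled array, 995.7 on the FoxO3-labelled array and 1944.8 on the FoxO4-labelled array, beside 805 in the implied control. The FoxO4-labelled array was highest, with differences under 2-fold: -0.77 for FoxO1 minus FoxO4 and -0.97 for FoxO3 minus FoxO4. FoxO1 minus FoxO3 was 0.19. The dim probe set 1421299_a_at read 22.0, 67.1 and 713.7, beside 124, so it was also highest on the FoxO4-labelled array, at -3.14 and -3.29 for the same differences. Its first values lie under the floors of 81.2 and 73.1, which bound these differences. Lef1 was above the implied control on the FoxO4-labelled array in both probe sets, at 1.27 and 2.52.

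Promoter windows, 250 bases before to 50 after each annotated start (RefSeq, GRCm38.p6), were found for 6 of the 9 genes, 11 windows in all. They were searched on both strands for CTTTGA, the core of the Tcf/Lef site, and for GTAAACA, a core FoxO site. The first is in 16.0% of all 32851 promoter windows and the second in 3.65%. CTTTGA was in 1 member window, an internal start of Lef1, with matches at -180 and -120 from that start, both as the reverse complement. GTAAACA was in 1 window, of Tcf7. The Lef1 windows are shown for the match, and those of Wnt10b and Axin2 because a ligand and a common Tcf target were lowest on the FoxO3-labelled array. Capitals mark CTTTGA or its reverse complement. The Lef1 pair sets the upstream start, with no match, beside the internal one. A match is a description of the letters in these windows and not a site of binding.
Wnt10b chr15:98778101-98778400 (minus strand): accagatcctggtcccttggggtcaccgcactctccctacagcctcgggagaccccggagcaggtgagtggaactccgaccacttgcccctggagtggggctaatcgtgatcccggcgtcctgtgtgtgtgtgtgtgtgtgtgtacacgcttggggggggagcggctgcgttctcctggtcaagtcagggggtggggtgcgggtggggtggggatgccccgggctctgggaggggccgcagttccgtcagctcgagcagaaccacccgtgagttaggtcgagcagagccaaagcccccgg
Axin2 chr11:108920099-108920398 (plus strand): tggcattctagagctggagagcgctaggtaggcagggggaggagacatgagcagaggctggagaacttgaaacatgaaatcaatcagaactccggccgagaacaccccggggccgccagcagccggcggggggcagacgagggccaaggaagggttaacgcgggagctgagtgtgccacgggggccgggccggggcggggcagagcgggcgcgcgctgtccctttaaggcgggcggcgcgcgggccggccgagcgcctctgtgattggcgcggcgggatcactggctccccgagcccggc
Lef1 upstream chr3:131110047-131110346 (plus strand): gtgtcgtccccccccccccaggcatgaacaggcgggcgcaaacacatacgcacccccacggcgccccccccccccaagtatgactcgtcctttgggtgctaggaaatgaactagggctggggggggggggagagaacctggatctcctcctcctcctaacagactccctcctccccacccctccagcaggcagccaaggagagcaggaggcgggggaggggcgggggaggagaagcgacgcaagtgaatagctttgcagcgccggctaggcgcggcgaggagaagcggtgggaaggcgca
Lef1 internal chr3:131156044-131156343 (plus strand): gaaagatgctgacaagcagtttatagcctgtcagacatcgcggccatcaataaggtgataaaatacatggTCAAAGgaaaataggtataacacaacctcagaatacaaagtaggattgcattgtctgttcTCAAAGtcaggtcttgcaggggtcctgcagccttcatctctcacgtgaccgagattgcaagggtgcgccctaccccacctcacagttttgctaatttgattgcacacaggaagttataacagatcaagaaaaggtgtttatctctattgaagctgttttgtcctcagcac

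Over all members, the FoxO3-labelled array was most often below the FoxO4-labelled array. Of the 17 probe sets, 13 were at least 2-fold apart, against 40.4% of all probe sets. On the FoxO3-labelled array, 10 were lower and 3 higher, against 20.7% and 19.7% of all probe sets. The members' median was -1.23, beside -0.08 over all probe sets. Among the 8 member probe sets with a mean signal above the median, 6 were lower and 0 higher. Of all such probe sets, 14.5% were lower and 15.1% higher (29.6% in either direction). The 6 were 1 probe set each of Wnt10a and Axin2, 2 of Ctnnb1 and 2 of Dkk3, so some genes count more than once. By the median over probe sets, 5 of the 8 member genes were lower and 1 higher, against 17.0% and 16.4% of all genes.

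**Figure D2:**
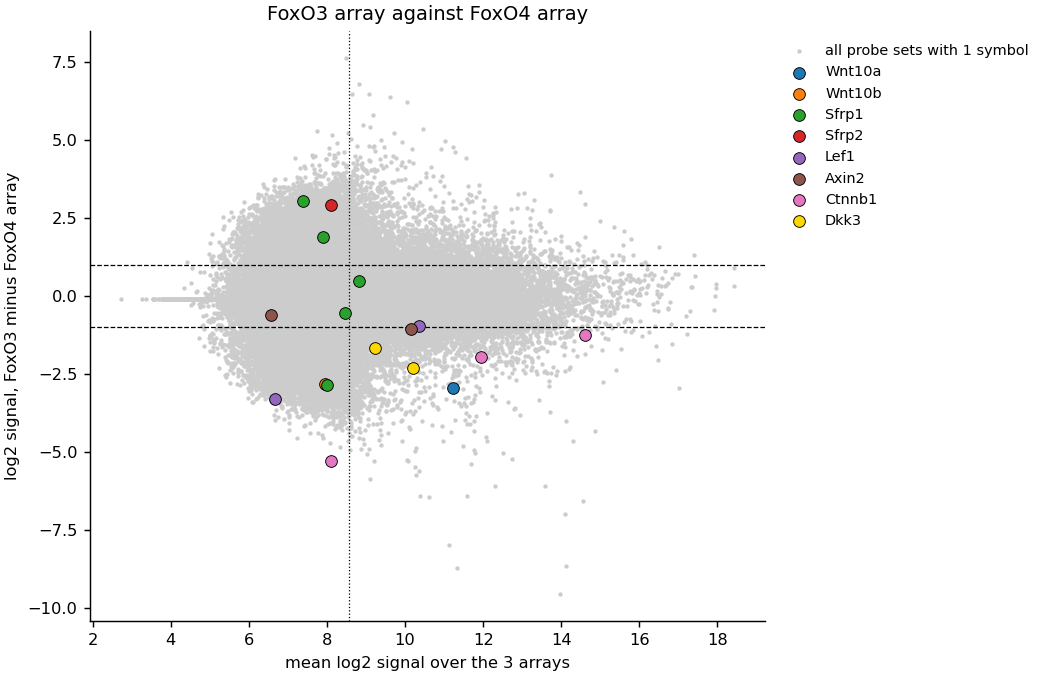
Log2 signal of the FoxO3-labelled array minus that of the FoxO4-labelled array against the mean log2 signal over the 3 arrays, for all 34958 probe sets with a single symbol (grey) and the 17 member probe sets (coloured by gene). Dashed lines mark 2-fold and the dotted line the median of mean signal. To the right of the dotted line 6 of 8 member probe sets lie below the lower dashed line and 0 above the upper one.

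By the median over all 17 member probe sets, the other array pairs gave smaller shifts. It was 0.37 for FoxO1 minus FoxO3, beside -1.23 for FoxO3 minus FoxO4. For FoxO1 minus FoxO3, 7 of the 17 probe sets were higher by 2-fold or more and 3 lower, against 22.2% and 19.5% of all probe sets (41.8% in either direction). Over all probe sets past 2-fold in this pair 53.2% were higher, and 42.6% once arrays were centred on their medians. Above the median of signal 5 of 8 member probe sets were higher and 0 lower. Of all such probe sets, 15.6% were higher and 15.0% lower (30.5% in either direction). The median of the 8 member probe sets was 1.32, near in size to their -1.44 for FoxO3 minus FoxO4. For FoxO1 minus FoxO4, 2 of the 17 probe sets were higher and 5 lower. Of all probe sets, 21.4% were higher and 19.2% lower (40.6% in either direction). Above the median of signal 1 of 8 was higher and 2 lower, against 14.6% and 13.1% (27.7% in either direction). The members' median of -0.60 lay beside 0.07 over all probe sets.

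Against the control, the largest share of member probe sets past 2-fold was on the FoxO4-labelled array. There 11 of the 17 probe sets were at least 2-fold higher and 3 lower, where 20.2% and 19.9% of all probe sets were (40.1% in either direction). The 3 lower probe sets were all of Sfrp1. Above the median of signal 6 of 8 were higher and 1 lower, against 18.8% and 13.6% (32.4% in either direction). On the FoxO3-labelled array, 5 were higher and 4 lower, against 19.4% and 20.1% (39.5% in either direction). Above the median of signal 2 were higher and 2 lower, against 18.8% and 13.2% (32.0% in either direction). On the FoxO1-labelled array, 6 were higher and 3 lower, against 22.0% and 20.6% (42.6% in either direction). Above the median of signal 3 were higher and 0 lower, against 18.9% and 12.7% (31.6% in either direction).

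In the authors' deposited table a change call on the FoxO1-labelled array was given to 0 of the 17 member probe sets, including Sfrp2 at 4.40 and Axin2 at 4.10, while 6.86% of all probe sets with a single symbol carried one. Of probe sets past 2-fold in that comparison, 89.2% carried none. The 3 comparisons with the control share its values, so they are given side by side and not as repeats.

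**Figure D3:**
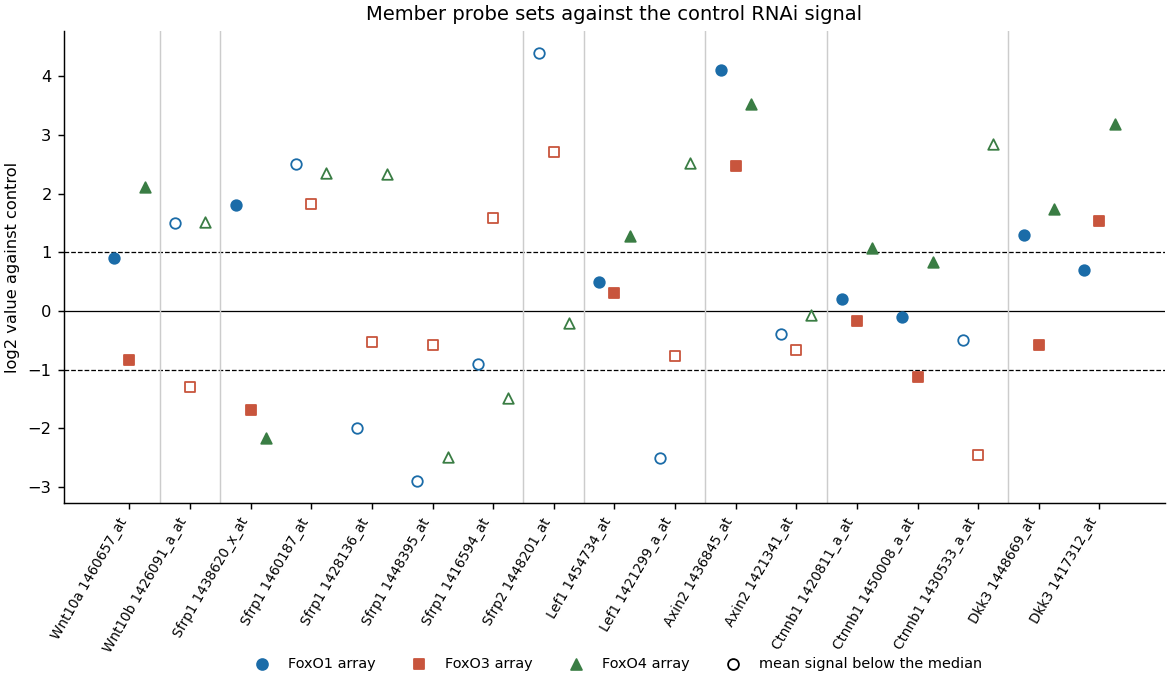
Log2 value against the control for each member probe set, from the deposited ratio for the FoxO1-labelled array (circles) and from the implied control for the arrays labelled FoxO3 (squares) and FoxO4 (triangles). Open symbols are probe sets with a mean signal below the median, and dashed lines mark 2-fold. Squares and triangles use floored signals, and the Sfrp2 triangle only sets 2 floors side by side. The triangle is the highest of the 3 symbols for Wnt10a, for both Lef1, both Dkk3 and all 3 Ctnnb1 probe sets, while Axin2 1436845_at has all 3 symbols above the upper dashed line.

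Probe sets of the same gene give a view of disagreement within an array pair, and none of how lines or cultures vary. For FoxO3 minus FoxO4, the standard deviation of the difference between the 2 probe sets of a gene was 1.42 over 1458 genes with both above the median of signal and 2.04 over 3236 other genes. Among the members the probe-set values were 0.67 apart for Dkk3, with both probe sets above the median, and 0.44 apart for Axin2 and 2.32 for Lef1, each with 1 dim probe set. They ran from -5.29 to -1.23 over the 3 Ctnnb1 probe sets and from -2.86 to 3.05 over the 5 of Sfrp1. A log2 value near 1 from 1 probe set is within this disagreement.

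Of 102 other Wnt pathway genes, 100 had a probe set. For FoxO3 minus FoxO4, 10 of them were at least 2-fold higher and 25 lower by the median over probe sets, against 16.4% and 17.0% of all genes, and their median of -0.17 lay beside -0.08 over all genes. Of 13 other secreted antagonists 4 were lower and 1 higher, with a median of -0.24. Of 15 receptors and co-receptors 7 were lower and 1 higher, with a median of -0.76. Fzd1, a Frizzled receptor, was lower in both its probe sets. It read 1696.2 and 352.2 on the FoxO3-labelled array, against 8028.3 and 1553.1 on the FoxO4-labelled array, a gene value of -2.19. Wls, the carrier that brings Wnt ligands to the cell surface, had a lower signal in all 4 probe sets, 3 of them past 2-fold. The brightest of them read 5815.3 on the FoxO3-labelled array, against 30996.3 on the FoxO4-labelled array, and the gene value was -1.75. Porcn, the enzyme that attaches the lipid to Wnt ligands, stood at -1.61. Its log2 values against the control were -1.10, -2.66 and -1.05 on the FoxO1-, FoxO3- and FoxO4-labelled arrays.

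The R-spondin branch, whose ligands and Lgr receptors keep Frizzled receptors at the surface, had a median of -0.41, with 1 of 9 higher and 2 lower. The 9 also hold Znrf3 and Rnf43, which are neither ligands nor Lgr receptors, so the list is not of 1 function. Genes of beta-catenin turnover had a median of 0.17 for FoxO3 minus FoxO4, with 1 of 16 higher and 1 lower. The 17 other Wnt ligands had a median of -0.08, with 2 higher and 3 lower. Nuclear partners and co-repressors had a median of 0.46, with 2 of 15 higher and 4 lower. Tcf7l1, a Tcf factor that mostly represses, was among the lower ones at -2.36. Its bright probe set read 1379.6 on the FoxO3-labelled array, against 2596.2 on the FoxO4-labelled array, a difference of -0.91 and so under 2-fold. The dim one stood at -3.81, bounded by the floor of 73.1, since its signal on the FoxO3-labelled array was 42.2. Of 13 transcriptional targets 2 were higher and 2 lower, with a median of -0.10. Ccnd1, which encodes cyclin D1, was higher at 1.09 and Jag1, a Notch ligand, lower at -1.06. The brightest probe set of each was under 2-fold, at 0.64 and -0.92.

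Against the control, the R-spondin branch had 6 of 9 genes higher and 2 lower on the FoxO1-labelled array. The 6 include Rnf43 at 3.0, which is neither a ligand nor an Lgr receptor. The Rnf43 probe set is dim, and its implied control of 50.6 lay under the floor of 88.8. The median of that list was 1.80, beside 0.00 over all genes, where 18.8% of genes were higher and 17.1% lower. On the FoxO3-labelled array 1 was higher and 2 lower, with a median of -0.28, against 15.2% and 17.0% of all genes. On the FoxO4-labelled array 2 were higher and 1 lower, with a median of 0.13, against 15.7% and 16.9%. By the mean over their probe sets, 2 of the 9 genes lay above the median of signal, Lgr6 at 2.05 and Lgr4 at 1.95 on the FoxO1-labelled array. The brighter Lgr6 probe set stood at 0.9, under 2-fold. The dim one stood at 3.2, with an implied control of 71.2 under the floor of 88.8. The brightest probe set of Lgr4 read 3819.6, 1489.6 and 6945.7 on the FoxO1-, FoxO3- and FoxO4-labelled arrays, beside 588 in the implied control, and carried an increase call on the first.

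The transcriptional targets went both ways against the control. Of 13, on the FoxO1-labelled array 4 were higher and 3 lower, with a median of -0.15. On the FoxO3-labelled array 3 were higher and 1 lower (median 0.03), and on the FoxO4-labelled array 5 and 1 (median -0.10). Of all genes, 18.8% were higher and 17.1% lower on the FoxO1-labelled array. The shares were 15.2% and 17.0% on the FoxO3-labelled array, and 15.7% and 16.9% on the FoxO4-labelled array. Among the 8 targets above the median of signal, 3, 3 and 4 were higher and 1, 1 and 0 lower on the FoxO1-, FoxO3- and FoxO4-labelled arrays. Of all probe sets above the median, 18.9%, 18.8% and 18.8% were higher and 12.7%, 13.2% and 13.6% lower. These are shares of probe sets, while the targets are genes, so the 2 are not alike. The medians of the 8 targets were -0.38, 0.53 and 1.13. Ccn4, a secreted matricellular protein, stood at 3.35, 1.56 and 2.37 on the FoxO1-, FoxO3- and FoxO4-labelled arrays, by the median over 2 probe sets. The brighter probe set stood at 2.1, 0.18 and 1.61, so it was near the implied control on the FoxO3-labelled array. The dimmer one stood at 4.6, 2.94 and 3.14. Its implied control of 46.2 lay under the floor of 88.8, which bounds its values on the FoxO3- and FoxO4-labelled arrays. Myc, a growth regulator, stood at 1.0, 1.82 and 1.52 in the same array order. Cd44, a hyaluronan receptor named after its values were seen, stood at -2.2, -1.6 and -3.3 on the FoxO1-labelled array in its 3 probe sets above the median of signal, each with a decrease or marginal decrease call. The bright Ccnd1 probe sets stood there at -0.9 and -1.7.

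**Figure D4:**
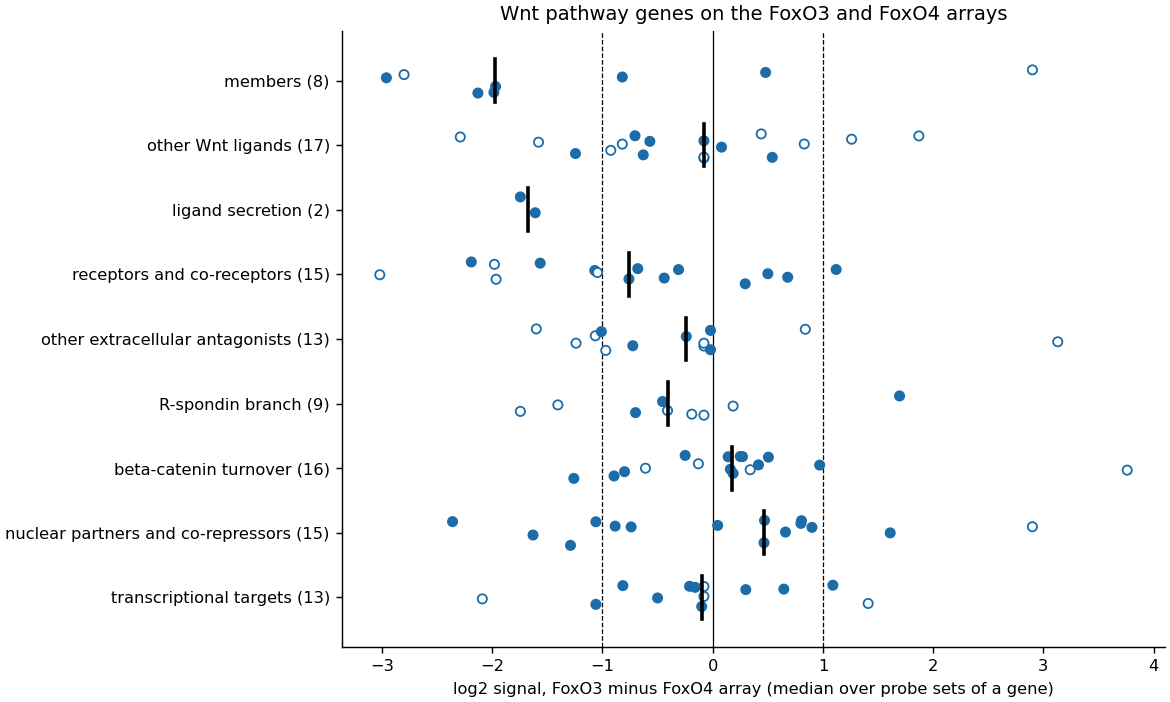
Log2 signal of the FoxO3-labelled array minus that of the FoxO4-labelled array for the 8 member genes and for each list of other Wnt pathway genes (number with a probe set in brackets), 1 point per gene, the median over its probe sets. Filled points have at least 1 probe set above the median of mean signal, black bars are list medians and dashed lines mark 2-fold. The members' bar lies at -1.98 and that of the receptors at -0.76, while beta-catenin turnover lies at 0.17.

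The genes most like a member were sought over 4 values, the 3 log2 signals less their mean and the log2 ratio of the FoxO1-labelled array. They were named for the 3 members with the largest range on a bright probe set, among 11473 genes. Nearest to Wnt10a were Maf, Rufy2 and Unc5c, at distances of 0.38, 0.43 and 0.47, with 5 genes within 0.5. Nearest to Dkk3 (1448669_at) were Plg, Prdm10 and Wls at 0.08, 0.10 and 0.19, with 27 genes within 0.5. Nearest to Sfrp1 (1438620_x_at) were Fbxo10, Brinp3 and Tmem88 at 0.40, 0.83 and 0.85, with 1 gene within 0.5. With 4 values per gene, such nearness describes these arrays and no more.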

How the data were processed

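RNA from 3 C2C12 lines was measured on 1 array each. The authors deposited an intensity (GCOS signal) per probe set, with a 2% trimmed mean of 1000 on each array, made with GCOS, per the submitters' processing notes. The GCOS version is not given in the sources used here. Another deposited file holds log2 ratios of FoxO RNAi over control RNAi and change calls, per the file headers. Across probe sets the FoxO1 ratio column tracked the difference between its array and the others (r of 0.578). The columns of the FoxO3- and FoxO4-labelled arrays did not (-0.0125 and -0.00122) and were not read per probe set. Subtracting the FoxO1 ratio from the log2 signal of its array gave the implied control.

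Signals, the implied control included, were floored at the 20th percentile of the array before log2, the deposited ratio was not, and 2-fold was the threshold. Of the probe sets, 34958 had 1 symbol (34754 matched to RefSeq by Entrez identifier), 932 several and 9211 none. Named genes were all members, the FoxO genes, the pathway genes furthest out past 2-fold (mean signal above the median, all probe sets of the same sign), and genes nearest to a member. Examples from these were selected for the text, and marker genes from a fixed list. The members and lists were chosen with earlier results of these data known. The arithmetic was checked on simulated data, with differences planted in bright probe sets and less noise than these arrays show. That check does not bear on how reliable the values here are. Array number limits the precision. Python 3.11.15, numpy 2.4.6, pandas 2.3.3 and scipy 1.17.1 were used.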

Additional observations from a re-analysis of the deposited data

Results flagged for a closer look

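Some member probe sets stood at least 2-fold from the control in opposite directions on a pair of arrays. With 1 array per line these differences were not tested, and both values of a pair rest on the same control. The ratio of the FoxO1-labelled array has no floor while the other values do, so a difference can depart from the direct one between arrays. Wnt10b (1426091_a_at) stood at 1.5 on the FoxO1-labelled array and -1.29 on the FoxO3-labelled array, a difference of 2.79, and at -1.29 against 1.52 on the FoxO4-labelled array, a difference of -2.80. Sfrp1 1438620_x_at stood at 1.80 on the FoxO1-labelled array, against -1.68 on the FoxO3-labelled array and -2.16 on the FoxO4-labelled array, differences of 3.48 and 3.96. Sfrp1 1428136_at stood at -2.0 on the FoxO1-labelled array and 2.34 on the FoxO4-labelled array, a difference of -4.34, against a direct difference of -4.05 with the FoxO1 signal set to the floor. Sfrp1 1416594_at stood at 1.58 on the FoxO3-labelled array and -1.48 on the FoxO4-labelled array, a difference of 3.05. Its FoxO4 signal of 61.9 was set to the floor of 77.3, which bounds the last 2 values. Lef1 1421299_a_at stood at -2.50 on the FoxO1-labelled array and 2.52 on the FoxO4-labelled array, a difference of -5.02, against a direct -3.14 with the FoxO1 signal set to the floor. Ctnnb1 1430533_a_at stood at -2.45 on the FoxO3-labelled array and 2.84 on the FoxO4-labelled array, a difference of -5.29. Of these probe sets 1438620_x_at alone had a mean signal above the median.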

How the results depend on the processing

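Counts of member probe sets past 2-fold stayed within 1.5 times under another floor, quantile normalization and centring. With probe sets above the median of signal alone (8 of 17), the counts were 3 for FoxO1 against control, 5 for FoxO1 minus FoxO3, 3 for FoxO1 minus FoxO4, 6 for FoxO3 minus FoxO4, and 4 and 7 for the FoxO3- and FoxO4-labelled arrays against the implied control, from 9, 10, 7, 13, 9 and 14. With the 11 probe sets without a letter suffix they were 6, 4 and 8 for the 3 pairs in that sequence, and 5 and 9 for the FoxO3- and FoxO4-labelled arrays against the implied control. These settings test fewer probe sets. At 3-fold the count for the FoxO3-labelled array against the implied control was 5 of 17. No share of all probe sets was taken without letter suffixes or at 3-fold, so those counts cannot be set against one. With the brightest probe set per gene, Sfrp1 turned to 3.48 for FoxO1 minus FoxO3 and Lef1 to 0.50 for FoxO1 against control, from -1.19 and -1.0, because their probe sets disagree. Without reaching 2-fold there were Ctnnb1 at 0.37 for FoxO1 minus FoxO3 and -0.17 for the FoxO3-labelled array against the implied control, Lef1 at -0.77 for FoxO1 minus FoxO4 and -0.97 for FoxO3 minus FoxO4, and Dkk3 at -0.44 for FoxO1 minus FoxO4. Sfrp1 stood at 3.96 for FoxO1 minus FoxO4 and 1.80 for FoxO1 against control. Of 184 gene values under 4 alternatives, 164 kept their side of 2-fold. Some of the 184 could not change, so the 164 do not measure stability. The brightest probe set is the only one for the 3 genes with 1 probe set. Centring leaves every ratio of the FoxO1-labelled array as it was, here and in the counts above. Centring shifted all probe sets by -0.26 for FoxO1 minus FoxO3 and by -0.21 for FoxO1 minus FoxO4, and left Ctnnb1 under 2-fold at 0.77 for FoxO1 minus FoxO3 and 0.96 for the FoxO4-labelled array against the implied control. Quantile normalization left Dkk3 at 0.86 for FoxO1 against control. No paired analysis was possible because each line has 1 array.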
